A study of Mus musculus with 32 samples.

Results

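The 51 genes described here encode proteins that copy DNA during S phase, make its building blocks, repair it and rebuild chromatin behind the replication fork. They were given as a list of gene names, drawn up with earlier results of these arrays known, and no measured value enters the rule that picks their probes. 23 belong to replication origins and the replisome, 5 to nucleotide supply, 10 to DNA repair, 5 to chromatin copying and 8 to the control of S phase. All 51 had a probe among the 36409 gene names on the array. 49 were found under their own symbol, and Orc1 and Orc6 under the older symbols Orc1l and Orc6l, which carry the same RefSeq accessions. 46 of the 51 were bright enough to be tested, among 27532 genes tested in all. The other 5 (Orc1, Brca1, Fancd2, Clspn and Ccne2) are described by their detection alone.

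RNA came from the whole hearts of individual C57BL/6 mice in a social stress model of posttraumatic stress disorder. Stressed mice sat in a mesh box inside the cage of an aggressor for 6 hours a day, with short spells of direct attack, and control mice sat in mesh boxes in a cage that held no aggressor. The 4 conditions were 5 days of stress with 1 day of rest (T5R1), 5 days with 10 days of rest (T5R10), 10 days with 1 day of rest (T10R1) and 10 days with 42 days of rest (T10R42). Each condition had its own 4 stressed and 4 control mice, with 1 array per mouse and 32 arrays in all. The comparisons ask what stress does to these genes after each exposure, and whether the effect is still there after rest. No genetic change or drug was used in any group, and the age and sex of the mice are not given in the sources used here.

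As background, origins of replication are licensed in G1, when the origin recognition complex, Cdc6 and Cdt1 load the Mcm2-7 helicase. In S phase Cdc45 and the GINS complex switch the helicase on, polymerases alpha and epsilon start and extend the strands, the clamp Pcna is loaded by replication factor C, and Fen1 and Lig1 join the fragments. Transcription of many of these genes is driven by E2F factors as cells leave quiescence, whereas mitotic genes peak later and are known for a different promoter element, the CHR. Most adult cardiomyocytes have left the cell cycle, so in a whole heart such transcripts can come from any of its cell types. In RNA from a whole tissue, a change in the number of cells of a type and a change of RNA per cell cannot be told apart.

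Levels are given as log2 signal relative to the 75th percentile of each array, so 0 is the level of a fairly bright probe and each unit is a doubling. A level can be compared between hearts for one probe, but not between probes. Changes are stressed minus control on that scale, and a value after ± is the SE. The SE is for 4 hearts per arm and rests on a spread pooled over all 8 groups, not on the spread of those hearts alone. A gene is called when its limma p, adjusted over all 27532 tested genes by the Benjamini-Hochberg method, is below 0.05. "Rose" and "fell" are kept for called genes. Each condition had a slide to itself with its 8 arrays, and within every slide the controls and the stressed hearts sat in different columns. Slide and condition therefore cannot be told apart, nor can column and stress. Arrays of a group correlated at 0.9821 to 0.9943. The 75th percentile signal ran from 237.2 to 498.9 and the probes well above background from 28792 to 40672. All 10 cardiomyocyte markers were well above background on all 32 arrays.

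In the hearts taken 1 day after 5 days of stress, 30 of the 46 tested members rose and 1 fell. Among all tested genes the share called higher in T5R1 was 5.30% and the share called lower 8.44%. Lower genes made up 61.4% of all calls on this scale, 36.5% after quantile normalization and 38.7% in the authors' deposited values, under which 32 and 31 members rose. The members' median change was 0.52, against -0.12 for all tested genes. Called higher with a fitted change of at least 1, a doubling, were 13 members and 378 of the 27532 tested genes. The 13 include the 4 members that no T5R1 control array detected. With these 4 set at their lower bounds, described further on, the median was 0.51. 38 of the 46 were measured higher, against 33.4% of all tested genes. In 29 every stressed heart lay above every control heart, an order found for 6.63% of all tested genes, and in 2 (Rdm1 and Cdc45) every one lay below, found for 15.7%. Over the 40 members well above background on all 32 arrays, the median change was 0.44 and 25 rose. The mean over the 46 members, taken relative to the controls of the condition, was 0.81, 0.63, 0.84 and 0.58 in the stressed hearts and -0.03 to 0.09 in the controls. Since earlier results were known when the list was drawn up, its count is a description. Fanci and Neil3 passed the filter on background through the stressed T5R1 arrays alone, the arm in which they are high, so these 2 of the 30 had to differ and support nothing. Dtl passed it only through the stressed arrays of T5R1 and T10R1, and its call is no support either.

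**Figure D1:**
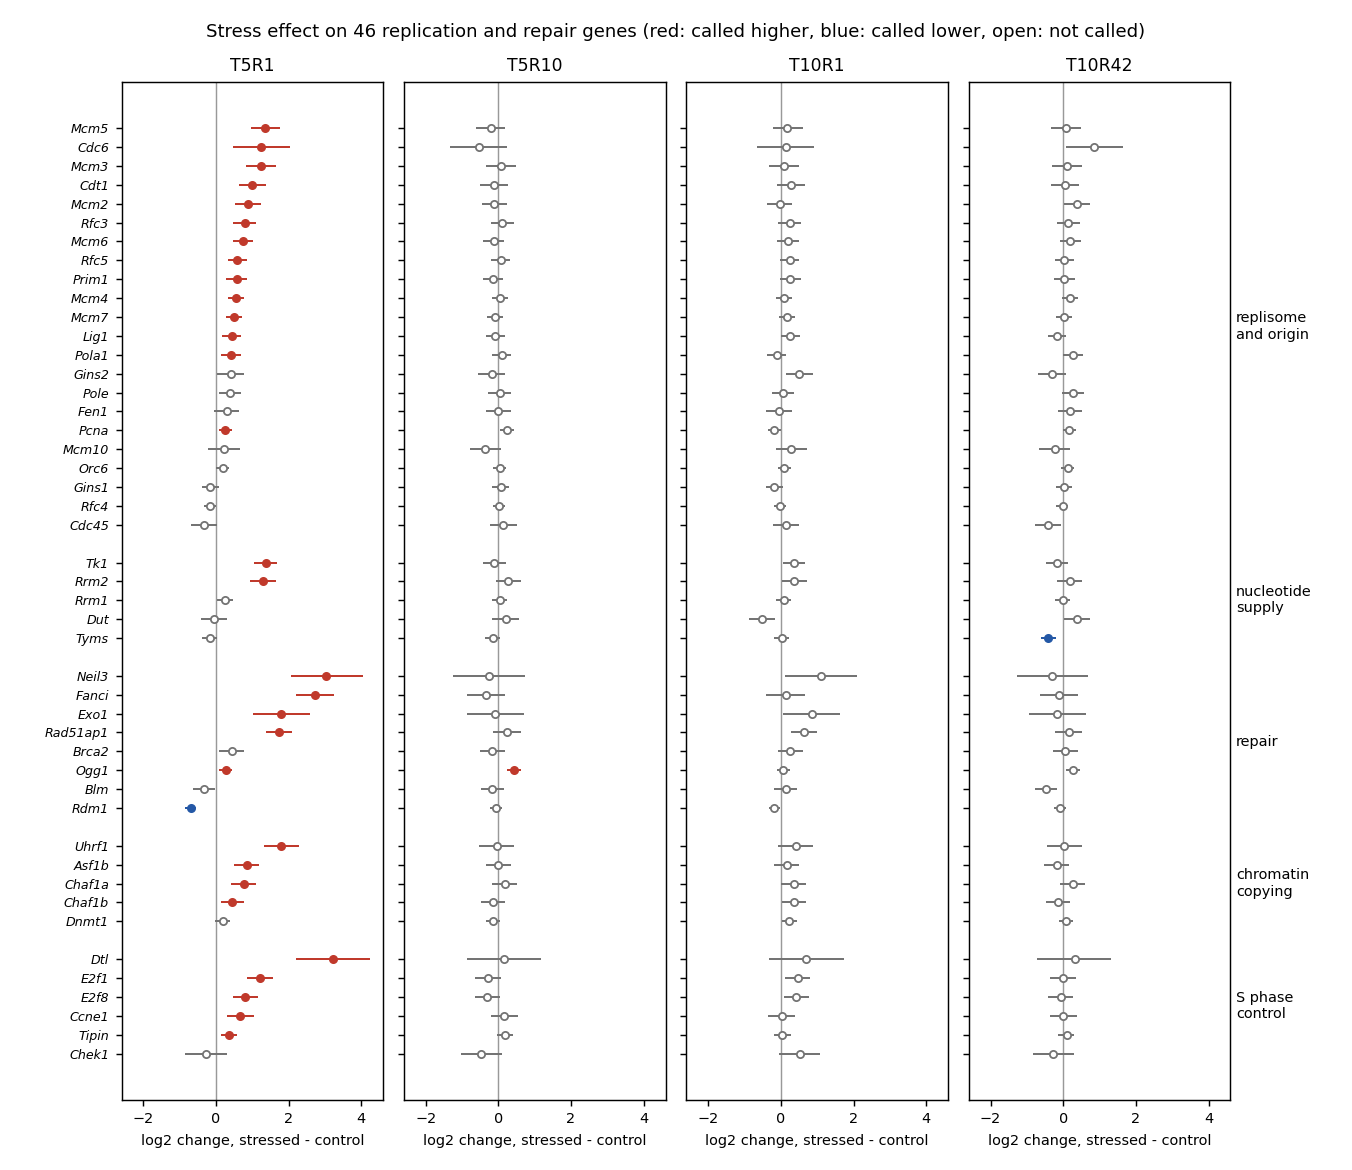
Change in log2 signal, stressed minus control, of the 46 tested members (rows, grouped by role and sorted by their T5R1 change) in the 4 conditions (columns). Points are limma estimates and bars their 95% intervals, with 4 hearts per arm; filled red and blue points were called higher and lower (30 and 1 in T5R1, 1 and 0 in T5R10, 0 and 0 in T10R1, 0 and 1 in T10R42), and open points were not called.

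The members' promoters were searched for E2F letters, since these genes are known as E2F targets. RefSeq windows of 300 bases (250 before the annotated start and 50 after it, GRCm38.p6) were at hand for 42 of the 51 members. The letters sought were TTTCCCGC, TTTCGCGC, TTTGCCGC and TTTGGCGC on both strands, and matches may overlap. They stood in the windows of 15 of the 42 members (35.7%), against 704 of 27025 genes with a window (2.6%). By window rather than gene, 2.26% of all 32851 windows held them. Of the members that rose in T5R1, 11 of 27 with a window had the letters: Cdc6, Cdt1, Dtl, Lig1, Mcm3, Mcm5, Mcm6, Mcm7, Pola1, Rfc3 and Uhrf1. Of the other members, 4 of 15 had them, namely Brca2, Clspn, Dnmt1 and Orc1. The letters of the mitotic element, TTTGAA on either strand, were distributed otherwise. They were found in 6 of the 42 members (14.3%), in 20.2% of all genes, and in 34 of 47 mitosis and spindle genes (72.3%), of which 3 had E2F letters (6.38%). A match of letters is not a binding site that was measured, and a window without a match says nothing of the factor.

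**Figure D2:**
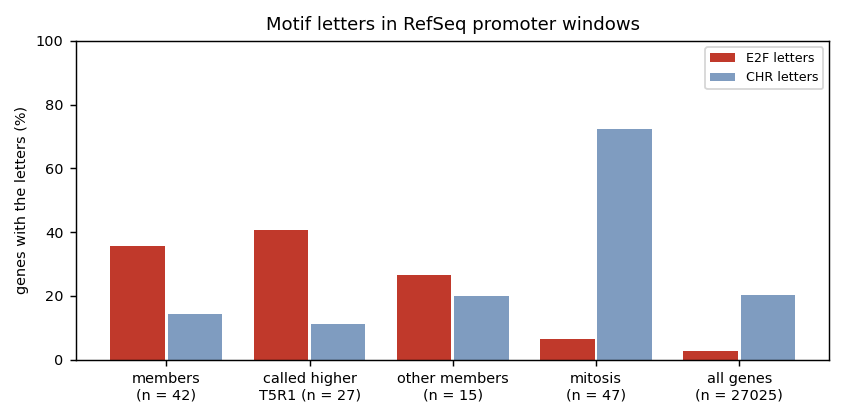
Percentage of genes (bars from 0) whose RefSeq promoter window holds E2F letters (red) or CHR letters (blue), for the members, the members that rose in T5R1, the other members, the mitosis and spindle genes, and all genes with a window. The members are high for E2F letters (35.7%) and the mitotic genes for CHR letters (72.3%), against 2.6% and 20.2% of all genes.

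Parts of 6 such promoters are shown because they belong to members that rose in T5R1 and span the roles of licensing factor, helicase, clamp loader, chromatin copier and S phase control. Each is read 5′ to 3′ on the strand of the gene, ends at or before the annotated start, and carries the E2F letters, of either strand, in capitals. On GRCm38.p6 they are chr8:75109326-75109397 on the plus strand (Mcm5), chr1:128359715-128359845 on the minus strand (Mcm6), chr11:98907983-98908050 on the plus strand (Cdc6), chr5:151651209-151651248 on the minus strand (Rfc3), chr17:56304098-56304165 on the plus strand (Uhrf1) and chr1:191575545-191575582 on the minus strand (Dtl).
Mcm5: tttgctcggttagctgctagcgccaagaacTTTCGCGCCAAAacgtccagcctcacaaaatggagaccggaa
Mcm6: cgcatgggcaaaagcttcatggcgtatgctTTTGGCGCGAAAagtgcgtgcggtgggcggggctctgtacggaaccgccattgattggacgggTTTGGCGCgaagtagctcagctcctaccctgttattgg
Cdc6: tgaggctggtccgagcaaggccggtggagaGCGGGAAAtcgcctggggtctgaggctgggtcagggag
Rfc3: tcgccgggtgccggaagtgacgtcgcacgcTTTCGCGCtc
Uhrf1: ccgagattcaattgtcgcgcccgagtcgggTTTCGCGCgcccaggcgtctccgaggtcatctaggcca
Dtl: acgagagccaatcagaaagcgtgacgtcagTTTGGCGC
In Mcm5 and Mcm6 a pair of matches on opposite strands overlap in 1 run, and Mcm6 has a further match nearer the start. The match of Dtl and the match of Rfc3 in capitals lie within the last 10 bases before the start. Rfc3 has a second match, on the opposite strand, directly after the stretch shown.

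Of the licensing and helicase genes, all 6 subunits of the Mcm2-7 helicase rose in T5R1. The level of Mcm5 was -1.31, -1.48, -1.34 and -1.29 in the control hearts and 0.22, -0.04, 0.13 and -0.29 in the stressed hearts. The arms stood far apart, and the change was 1.36 ± 0.19 (SE), or 2.56-fold, with an adjusted p of 2.18e-05. Mcm2 was at -1.32, -1.40, -1.21 and -1.53 in controls and at -0.53, -0.70, -0.25 and -0.45 in stressed hearts, again with no overlap, and changed by 0.88 ± 0.16 (adjusted p = 0.000451). Mcm3 changed by 1.24, Mcm6 by 0.74, Mcm4 by 0.55 and Mcm7 by 0.48. Both helicase loaders rose, Cdt1 by 1.00 ± 0.17 and Cdc6 by 1.24 ± 0.37 (adjusted p = 0.0256). Cdc6 was dim: all 4 stressed arrays but only 1 control array had it well above background. The Cdc6 call was lost without control replicate 3 (1.20), control replicate 4 (1.16) or stressed replicate 1 (1.17), with an adjusted p of 0.0615 to 0.0765.

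The genes that start the helicase gave no call. Cdc45 was measured at -0.33 ± 0.16 (adjusted p = 0.182) with every stressed heart below every control heart. Gins1 was at -0.16, Gins2 at 0.40 and Mcm10, which helps to start the fork, at 0.22. Orc6, the smallest subunit of the origin recognition complex, was at 0.19, and Orc1, its largest, was detected in 1 stressed heart and in no control.

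At the fork itself, the clamp loader subunits Rfc3 (0.79 ± 0.14) and Rfc5 (0.58 ± 0.11) rose, whereas Rfc4 was at -0.17 ± 0.07 (adjusted p = 0.0943) and gave -0.19 with its other probe. Prim1, the primase that lays the RNA primer, rose by 0.57 ± 0.13, and Pola1, the polymerase that extends it, by 0.41 ± 0.12. Lig1, which seals nicks in new DNA, rose by 0.43 ± 0.11. Fen1, which trims the primer flaps, was at 0.29 ± 0.15 and the leading strand polymerase Pole at 0.39 ± 0.14 (adjusted p = 0.0561), neither called. The clamp Pcna moved little. Its controls were at 2.83, 2.76, 2.72 and 2.72 and its stressed hearts at 3.10, 3.07, 3.02 and 2.84. The arms nearly met but did not overlap, and the change was 0.25 ± 0.08, or 1.19-fold (adjusted p = 0.0274). The Pcna call was lost without control replicate 2, 3 or 4 or stressed replicate 1, 2 or 3 (0.22 to 0.25, adjusted p 0.0512 to 0.0986). Pola1 lost its call without control replicate 3 or stressed replicate 3 (0.32 each, adjusted p 0.09 and 0.0785), and Lig1 without stressed replicate 3 (0.29, adjusted p 0.0554).

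Nucleotide supply was split. Tk1, the S phase thymidine kinase, was at -1.30, -1.39, -1.19 and -1.37 in controls and 0.16, -0.01, 0.10 and -0.02 in stressed hearts, which left a gap of more than a doubling between the arms. Its change was 1.37 ± 0.14 (2.58-fold, adjusted p = 5e-07). Rrm2, the subunit that limits ribonucleotide reductase in S phase, was at -0.96, -1.10, -0.99 and -1.16 in controls and 0.39, 0.15, 0.32 and 0.06 in stressed hearts. The arms were again well separated, with a change of 1.28 ± 0.16 (2.43-fold, adjusted p = 5.38e-06). Its partner Rrm1 was measured at 0.24 ± 0.09 (adjusted p = 0.0719) and Dut, which clears dUTP, at -0.06. Tyms, which makes thymidylate, was at -1.46, -1.34, -1.06 and -1.35 in controls and -1.56, -1.36, -1.50 and -1.47 in stressed hearts. These overlapped, and the change of -0.17 ± 0.09 was not called.

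Of 8 tested repair genes 5 rose, several from below background, and 1 fell. Among all tested genes 5.30% were called higher and 8.44% lower. Fanci and Neil3 were tested only through the T5R1 stressed arrays, in which they are high, so their calls support nothing. Fanci, a partner of Fancd2 in the repair of cross-linked DNA, was at -5.86, -6.75, -6.18 and -6.81 in controls and -3.46, -3.80, -3.49 and -3.92 in stressed hearts (probe at chr7:86595076-86595135, mm9). It was well above background on none of the control arrays and on all 4 stressed arrays. The fitted change was 2.73 ± 0.24. Set against the lowest detected signal of the control arrays, it was at least 1.45-fold higher. Neil3, a glycosylase that removes oxidized bases, went from -5.79, -5.93, -6.11 and -6.70 to -2.75, -3.27, -2.91 and -3.43 and was at least 2.17-fold higher. Exo1, a nuclease of mismatch repair and end resection, went from -5.09, -4.40, -5.35 and -4.36 to -2.53, -3.09, -2.82 and -3.54 and was at least 2.15-fold higher (adjusted p = 0.00172). Both were detected in none of the T5R1 controls and all of the stressed hearts. These bounds are given since a fitted fold against an undetected level is no measured fold. They set the mean of the stressed hearts against the lowest signal counted as well above background on each control array. Where the gene's own measured level was higher than that signal, it was used in its place. The signal is the lowest of any probe, and a given probe can go undetected above it. Each "at least" therefore holds against that level and is no strict limit.

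Rad51ap1, an accessory factor of homologous recombination, was above background on all arrays. Its levels were -2.80, -2.69, -2.91 and -2.97 in controls and -0.96, -1.31, -0.94 and -1.23 in stressed hearts. Every stressed heart was more than a doubling above every control, and the change was 1.73 ± 0.17 (3.32-fold, adjusted p = 2.55e-07). Ogg1, the glycosylase for 8-oxoguanine, was at -0.31, -0.49, -0.59 and -0.56 in controls and -0.19, -0.36, -0.21 and -0.13 in stressed hearts. The arms overlapped and the rise was small, at 0.26 ± 0.07 (1.2-fold, adjusted p = 0.0194). It lost its call without control replicate 3 or 4 or stressed replicate 1 or 4 (0.23 to 0.25, adjusted p 0.0547 to 0.0713).

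Rdm1, a gene with a RAD52-like motif, was the member that fell. It was at 4.80, 4.85, 4.75 and 4.83 in controls and at 4.03, 4.17, 4.01 and 4.21 in stressed hearts (probe at chr11:101497326-101497385, mm9). The arms were tight and far apart, and the change was -0.70 ± 0.06 (adjusted p = 1.41e-07). The fall was called in all 19 alternatives run for it, at -0.74 to -0.61. Brca2 was at 0.43 ± 0.15 (adjusted p = 0.0611) and Blm, a helicase of recombination, at -0.34 ± 0.14 (adjusted p = 0.0988). Brca1 was well above background on 0 of the 32 arrays, with levels of -5.77 to -6.76 in T5R1 controls and -5.93 to -7.26 in stressed hearts, and Fancd2 on 1 of the 32.

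**Figure D3:**
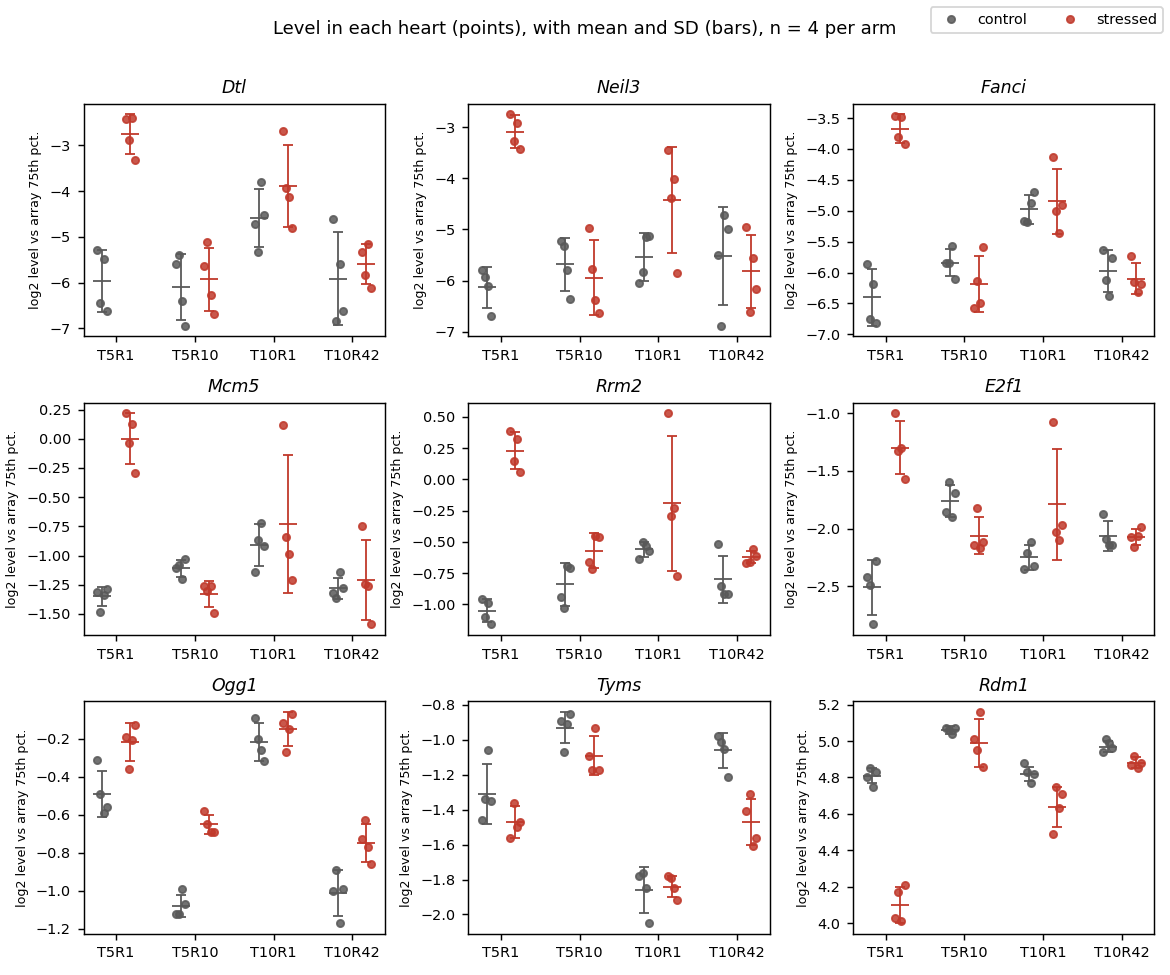
Log2 level relative to the array's 75th percentile of 9 members in each heart (points; gray control, red stressed), with mean and SD (bars, n = 4), in the 4 conditions. Dtl, Neil3, Fanci, Mcm5, Rrm2 and E2f1 stand apart in T5R1, where Rdm1 is low; Ogg1 is separated in T5R10 and T10R42, and Tyms is low in T10R42 (-1.61 to -1.31 against -1.21 to -0.98).

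Of the genes that copy chromatin behind the fork, Uhrf1, which brings the maintenance methyltransferase to hemimethylated DNA, rose most. Its levels were -1.42, -1.48, -1.76 and -1.68 in controls and 0.32, 0.00, 0.62 and -0.12 in stressed hearts. The arms did not overlap, and the change was 1.79 ± 0.22 (3.46-fold, adjusted p = 5.42e-06). The histone chaperones Asf1b (0.84 ± 0.15), Chaf1a (0.76 ± 0.15) and Chaf1b (0.45 ± 0.14) rose. Chaf1b lost its call without control replicate 1, 2 or 4 or stressed replicate 1 or 3 (0.39 to 0.45, adjusted p 0.0707 to 0.101). Dnmt1, the methyltransferase itself, was at -1.27, -1.42, -1.42 and -1.28 in controls and -1.15, -1.29, -1.25 and -0.98 in stressed hearts, which overlapped. Its change of 0.18 ± 0.08 was not called (adjusted p = 0.156).

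Control genes of S phase rose in 5 of 6 tested. Dtl, the substrate receptor that marks Cdt1 for destruction in S phase, was at -5.28, -6.45, -5.48 and -6.63 in controls and -2.43, -2.88, -2.39 and -3.31 in stressed hearts (probe at chr1:193361259-193361318, mm9). It was detected in none of the controls and all 4 stressed hearts. By the bound used for the repair genes it was at least 2.74-fold higher (adjusted p of the fitted change = 7.42e-05). Dtl passed the filter on background only through the stressed arrays of T5R1 and T10R1, so its call is a description and no support. E2f1, an activator of S phase genes, was at -2.42, -2.49, -2.83 and -2.28 in controls and -1.0, -1.33, -1.30 and -1.57 in stressed hearts, with no overlap. It changed by 1.20 ± 0.16 (2.3-fold, adjusted p = 1.42e-05). E2f8, a repressor of the same family, rose by 0.80 ± 0.15, cyclin E1 (Ccne1) by 0.67 ± 0.17 and the fork protection factor Tipin by 0.35 ± 0.10. Tipin lost its call without control replicate 2 (0.31, adjusted p 0.0648) or stressed replicate 3 (0.30, adjusted p 0.0548). The checkpoint kinase Chek1 was at -3.10, -2.88, -3.21 and -2.42 in controls and -3.40, -2.69, -3.36 and -3.26 in stressed hearts, which overlapped, and its change of -0.28 ± 0.26 was not called. Clspn, the adaptor of that kinase, and cyclin E2 (Ccne2) were well above background on 0 of the 32 arrays. With no filter on background, Clspn was called in T5R1 (1.26 ± 0.37, adjusted p = 0.0323), a value that compares levels at the floor.

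6 members had a second probe, and these did not all give the same size of change in T5R1. The probes of Chaf1b start at 93906219 and 93906269 of chromosome 16 (mm9) and were above background on all arrays, yet gave 0.45 and 1.79. For Uhrf1 the brighter probe gave 1.79, whereas the other, above background on 4 of 32 arrays, gave -0.10 ± 0.50, and with the mean of both probes the rise was 0.85 and not called (adjusted p = 0.0734). The second probe of Pole gave -1.07 ± 0.60 against 0.39, that of Cdc6 1.95 against 1.24, and that of Ccne1, detected on 1 array, 0.58 against 0.67. Sizes of change for these genes hold for the brightest probe.

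Genes of the same pathways outside the 51 were examined in the same way. In T5R1, of 37 other replication genes 9 rose and 0 fell, with a median of 0.06. Pole2, a subunit of polymerase epsilon, changed by 1.54 ± 0.23, the primase subunit Prim2 by 0.72 ± 0.11, Chtf18, of an alternative clamp loader, by 0.77 ± 0.14 and Ticrr, an origin-firing factor, by 2.70 ± 0.51. Ticrr was detected in none of the T5R1 controls, so that fitted value is no measured fold. Of 31 other homologous recombination and Fanconi genes 4 rose, the recombination factors Rad54b (2.36, not detected in the controls) and Rad54l (1.69) and, by less, Fanca (0.54) and Rad50 (0.30). Of 27 E2F and Rb genes 8 rose, and the 4 with the smallest p were cyclin A2 (Ccna2, 2.09), the pocket protein Rbl1 (0.73), the E2F partner Tfdp1 (0.48) and cyclin D1 (Ccnd1, 0.73). Of 15 other nucleotide genes 3 rose, among them Dck (1.12) and Impdh1 (0.42).

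The other repair lists are read against the 5.30% and 8.44% of all tested genes called higher and lower in T5R1. None of 19 base excision and single-strand break repair genes and none of 15 nucleotide excision repair genes was called by limma in T5R1. At an unadjusted p below 0.05 none of either list was higher, and 3 and 2 were lower. At that unadjusted threshold 2521 of the 27532 tested genes were higher and 5604 lower. The base excision list leaves out the glycosylases Ogg1 and Neil3, which are members and were called higher, so it does not stand for the whole pathway. Of 7 mismatch repair genes 1 rose (Pms2, 0.30 ± 0.10). Of 11 end joining genes Dclre1c rose (0.42 ± 0.14) and Xrcc5 fell (-0.28 ± 0.10). Of 17 p53 targets Zmat3 rose (0.41 ± 0.12) and Fas fell (-0.56 ± 0.13). The medians of these lists lay between -0.09 and 0.07. Their difference from the members was not tested, and the lists were drawn up with earlier results of these arrays known.

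**Figure D4:**
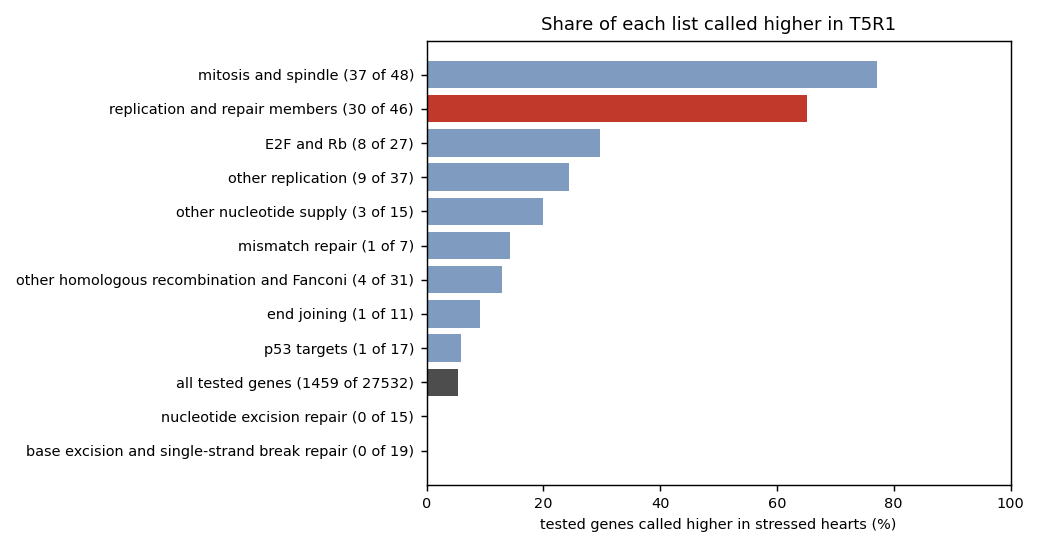
Percentage of the tested genes of each list called higher in T5R1 (bars from 0; counts beside the names). The members (red, 30 of 46) lie below the mitosis and spindle genes (37 of 48) and above the other pathway lists, and 1459 of 27532 tested genes (dark bar) were called higher.

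Set beside mitosis and spindle genes, the members' changes were of smaller size. Of 48 tested mitotic genes 37 rose and 1 fell in T5R1, with a median of 1.92 against 0.52 for the members. Kif22 (2.22 ± 0.17), Birc5 (2.37 ± 0.20), Cdca3 (3.20 ± 0.28) and Plk1 (1.88 ± 0.18) had the smallest p of that list. 11 of the 48 mitotic genes were detected in none of the T5R1 controls, as were 4 members, so these medians hold fitted values at the floor. With the normexp background correction the mitotic median was 0.74 and the members' 0.39. Among genes above background on all arrays the medians were 1.68 for 24 mitotic genes and 0.44 for 40 members. The difference between the lists was not tested.

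Markers of several cell types moved in the same T5R1 hearts. 10 of 15 macrophage markers rose (Ms4a7 by 1.94, Cd68 by 1.17), 7 of 12 fibroblast markers (Col3a1 by 2.95, Lum by 1.04), 4 of 12 erythroid markers (Ahsp by 2.60, Slc4a1 by 1.92) and 3 of 7 neutrophil markers (S100a8 by 2.08). 0 of 10 endothelial markers were called, 1 of 10 cardiomyocyte markers fell (Tnni3, -0.32), 1 of 12 T and B cell markers fell (Cd3e, -0.41) and 0 of 3 thymocyte markers were called, with Rag1 at background on all 32 arrays. The mean of the macrophage markers was 1.30, 0.90, 0.37 and 0.41 above the controls in the 4 stressed hearts, that of the fibroblast markers 1.78, 1.15, 0.84 and 1.03, and that of the erythroid markers 0.40, 0.66, 1.91 and 0.54. The erythroid mean was highest in stressed replicate 3. The members' means in the same order were 0.81, 0.63, 0.84 and 0.58, so theirs was also highest in replicate 3, by little over replicate 1. Without that heart 25 members were called higher and 2 lower, the second being Rfc4. The part of these markers in the members' changes was not tested.

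After 10 days of rest from the same exposure (T5R10), 1 of the 46 members was called higher and none lower. The share of all tested genes called higher was 0.0218% and lower 0.0545%, so calls were rare throughout this condition. The members' median was -0.06, with 20 measured higher and 26 lower, and 46.1% of all tested genes measured higher. In 2 members every stressed heart lay above every control (2.59% of all genes), and in 2 (Mcm5 and Cdc6) every one lay below (3.24%). At an unadjusted p below 0.05, 2 members were higher and 0 lower, against 1782 and 2060 of the 27532 tested genes. The called member was Ogg1, at -1.12, -1.12, -0.99 and -1.07 in controls and -0.58, -0.65, -0.69 and -0.69 in stressed hearts. The arms were separated, and the change was 0.42 ± 0.07 (1.34-fold, adjusted p = 0.0235). The call was lost without control replicate 1 (0.41, adjusted p 0.0929), control replicate 2 (0.41, adjusted p 0.126) or control replicate 4 (0.43, adjusted p 0.0814). Pcna was the other with no overlap, at 2.51, 2.48, 2.54 and 2.38 in controls and 2.64, 2.66, 2.77 and 2.79 in stressed hearts, and was not called (0.24 ± 0.08, adjusted p = 0.167). Mcm5, which rose in T5R1, was here at -1.11, -1.08, -1.20 and -1.03 in controls and -1.26, -1.30, -1.26 and -1.49 in stressed hearts, which all lay lower (-0.22 ± 0.19, not called). Rrm2 was at -0.94, -1.03, -0.69 and -0.71 in controls and -0.66, -0.72, -0.45 and -0.46 in stressed hearts, with overlap (0.27 ± 0.16, not called). Fanci, Neil3 and Dtl were detected on no array of either arm.

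The other followed genes overlapped between the arms in T5R10. Mcm2 was at -1.58, -1.32, -1.58 and -1.37 in controls and -1.43, -1.44, -1.53 and -1.93 in stressed hearts (-0.12). E2f1 was at -1.86, -1.60, -1.90 and -1.69 in controls and -2.14, -1.82, -2.17 and -2.12 in stressed hearts (-0.30), so 3 of the 4 stressed hearts lay under all controls. Tyms was at -0.89, -1.07, -0.91 and -0.85 against -1.09, -1.17, -0.93 and -1.17 (-0.16), and Dnmt1 at -0.93, -0.60, -0.65 and -0.92 against -1.06, -0.90, -0.92 and -0.85 (-0.15). Chek1 was at -1.63, -1.60, -2.50 and -1.51 in controls and -2.16, -2.26, -2.24 and -2.45 in stressed hearts (-0.47), where control replicate 3 alone reached below the stressed hearts. None of these was called.

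Whether the stress effect differed between T5R10 and T5R1 was tested directly. The effect was lower in T5R10 for 19 members and higher for 1, against 1.31% and 1.18% of all tested genes. 8 of the 19 were replisome and origin genes: Mcm2 to Mcm7, Cdt1 and Prim1. The others with a lower effect were Rrm2, Tk1, Rad51ap1, Fanci, Exo1, Neil3, Uhrf1, Asf1b, Dtl, E2f1 and E2f8. Of these, Fanci and Neil3 were tested only through the T5R1 stressed arrays, in which they are high. Dtl was tested only through the stressed arrays of T5R1 and T10R1. The lower effect of these genes in T5R10 therefore supports nothing. For Mcm5 the difference was -1.58 ± 0.26 (adjusted p = 0.00164), for Tk1 -1.47 ± 0.20 (adjusted p = 0.000166) and for E2f1 -1.50 ± 0.23 (adjusted p = 0.000677). Rdm1 went the other way, by 0.64 ± 0.09 (adjusted p = 0.00039). For Pcna the difference was -0.02 ± 0.11, not called. T5R10 had 3 arrays marked for evaluation by the scanner software (control replicate 4 and stressed replicates 1 and 2). Without them Rrm2 (-1.01 with all arrays), Cdt1, Mcm4, Exo1 and Asf1b lost this call. Of the 16 hearts left out singly, 14 ended the call of Exo1, 11 that of Mcm4, 8 that of Prim1 and 7 that of Asf1b, with adjusted p up to 0.114. Mcm7 lost it without T5R1 stressed replicate 1 or T5R10 stressed replicate 3 (adjusted p 0.0579 to 0.0582) and Mcm3 without T5R1 stressed replicate 1 (adjusted p 0.0533). The count of members called ran from 14 to 21.

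At 1 day after 10 days of stress (T10R1), no member was called by limma, while 0.774% of all tested genes were called higher and 0.360% lower. Taken without adjustment, p was below 0.05 for 13 members measured higher and 3 measured lower, and for 1751 and 1862 of the 27532 tested genes. The median was 0.18, and 38 of 46 were measured higher, against 50.0% of all genes. In 4 members every stressed heart lay above every control (4.30% of all genes): Gins2, Lig1, E2f1 and Dnmt1. In 2, Dut and Rdm1, every one lay below (5.47%). E2f1 was at -2.35, -2.21, -2.12 and -2.32 in controls and -1.08, -2.03, -2.10 and -1.97 in stressed hearts, where stressed replicate 1 stands far above the others (0.46 ± 0.16, adjusted p = 0.186). Rrm2 was at -0.64, -0.50, -0.53 and -0.57 in controls and 0.53, -0.29, -0.23 and -0.77 in stressed hearts, which overlapped (0.37 ± 0.16, adjusted p = 0.303). Mcm5 was at -1.14, -0.87, -0.72 and -0.92 in controls and 0.12, -0.84, -0.99 and -1.21 in stressed hearts, again with only stressed replicate 1 above (0.18 ± 0.19). Rad51ap1 came nearest to a call (0.64 ± 0.17, adjusted p = 0.0562). Dnmt1 was at -1.43, -1.42, -1.45 and -1.43 in controls and -1.04, -1.42, -1.17 and -1.16 in stressed hearts, of which replicate 2 barely cleared the controls (0.23 ± 0.08, not called).

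The remaining followed genes overlapped in T10R1 and were not called. Mcm2 was at -0.76, -0.80, -0.73 and -0.76 in controls and -0.27, -0.80, -1.02 and -1.08 in stressed hearts (-0.03), with stressed replicate 1 above and the others at or below the controls. Pcna was at 3.00, 3.06, 3.01 and 3.09 in controls and 3.08, 2.97, 2.67 and 2.73 in stressed hearts (-0.18), and here too stressed replicate 1 was the highest of its arm. Tyms was at -1.78, -1.76, -1.85 and -2.05 against -1.78, -1.79, -1.85 and -1.92 (0.02). Ogg1 was at -0.09, -0.20, -0.26 and -0.32 against -0.12, -0.27, -0.15 and -0.07 (0.07), and Chek1, dim in these hearts, at -3.07, -3.64, -4.72 and -3.64 against -3.48, -3.37, -3.12 and -3.02 (0.52).

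Stressed replicate 1 had the highest mean of the members in T10R1. The mean over the 46 members, relative to the controls, was 0.58 in stressed replicate 1 and 0.13, 0.13 and 0.00 in the others, with controls at -0.06 to 0.06. The mean of the mitosis and spindle genes was 1.35 in that heart and 0.57, 0.48 and 0.03 in the others, and that of the erythroid markers 1.40 against 0.48, 0.18 and 0.17. The macrophage and fibroblast means were highest in stressed replicate 4 (0.72 and 1.40), against 0.48 and 1.19 in replicate 1. Without this heart the members' median was 0.08, and E2f1 was at 0.22, Rrm2 at 0.13, Rad51ap1 at 0.39 and Mcm5 at -0.10. 4 of 48 mitotic genes were called higher in T10R1 with all hearts (Ccnb2, Cdca8, Nuf2 and Anln), and 8 of 12 fibroblast markers rose. The part of the erythroid signal in the members' values was not tested.

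**Figure D5:**
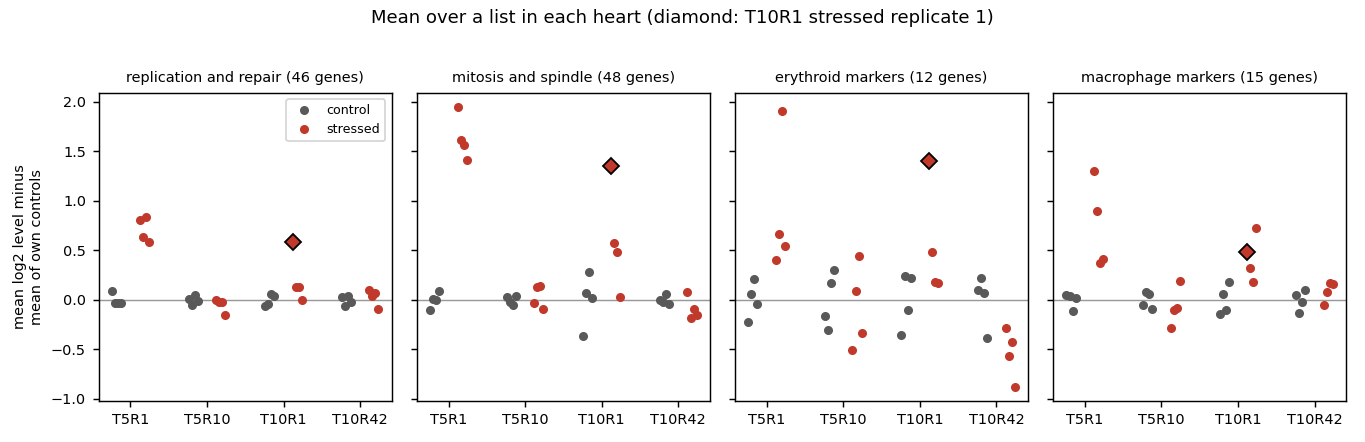
Mean log2 level over a list in each heart, minus the mean of the control hearts of its condition, for the members, the mitosis and spindle genes, the erythroid and the macrophage markers (gray control, red stressed, 4 hearts per arm). All 4 T5R1 stressed hearts are high for the members (0.58 to 0.84), whereas in T10R1 stressed replicate 1 (diamond, 0.58) stands above the others (0.00 to 0.13), as it does for the mitotic and erythroid lists.

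Comparing 10 with 5 days of stress at 1 day of rest, the effect was lower in T10R1 for 6 members and higher for 1 (0.232% and 0.360% of all tested genes were called lower and higher). The lower ones were Mcm3 (-1.16 ± 0.27), Mcm5 (-1.17 ± 0.26), Tk1 (-1.0 ± 0.20), Rad51ap1 (-1.09 ± 0.24), Fanci (-2.60 ± 0.34) and Uhrf1 (-1.38 ± 0.31), and the higher one was Rdm1 (0.52 ± 0.09), which fell in T5R1. Fanci, tested only through the arm in which it is high, apart, adjusted p ran from 0.0132 for Rdm1 to 0.0453 for Mcm3. Without stressed replicate 1 of T10R1 the count was 16 in place of 7 and took in Mcm2, Rrm2, E2f1, Pcna and Dtl. Dtl was tested only through the stressed arrays of T5R1 and T10R1, so its call supports nothing. Without other single hearts the count ran from 2 to 9. Rdm1 kept the call without any single heart. Of the 16 hearts left out in turn, 12 ended the call of Mcm5, 11 each those of Mcm3, Rad51ap1 and Uhrf1, and 6 that of Tk1, with adjusted p of 0.0523 to 0.104. The T10R1 and T5R1 slides were scanned on different days. This comparison and the one between T5R10 and T5R1 share the T5R1 hearts.

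After 42 days of rest from 10 days of stress (T10R42), no member was called higher and 1 lower, with 0.287% and 0.610% of all tested genes called. At an unadjusted p below 0.05, 6 members were higher and 3 lower, as were 1965 and 3202 of the 27532 tested genes. The median was 0.03, and 28 of 46 were measured higher, against 44.5% of all genes. In 3 members (Ogg1, Pcna and Mcm6) every stressed heart lay above every control (4.16% of all genes), and in 3 (Tyms, Cdc45 and Rdm1) every one lay below (7.29%). Tyms fell, from -0.98, -1.01, -1.05 and -1.21 in controls to -1.41, -1.31, -1.61 and -1.56 in stressed hearts. The arms did not overlap, and the change was -0.41 ± 0.09 (adjusted p = 0.0264). The call was lost without control replicate 1 (-0.38), 2 (-0.39) or 3 (-0.41) or stressed replicate 3 (-0.37) or 4 (-0.38), with adjusted p from 0.0603 to 0.111. Ogg1, at -1.0, -0.89, -1.17 and -0.99 in controls and -0.73, -0.63, -0.77 and -0.86 in stressed hearts, was again separated but not called (0.27 ± 0.07, adjusted p = 0.0673). Pcna, at 2.50, 2.55, 2.64 and 2.61 in controls and 2.69, 2.82, 2.81 and 2.68 in stressed hearts, was separated and not called (0.17 ± 0.08, adjusted p = 0.213). Cdc6 was above background on 2 stressed and no control arrays. Its levels of -4.61, -4.72, -4.43 and -5.77 in controls and -3.70, -4.97, -2.80 and -4.65 in stressed hearts overlapped and gave no call (adjusted p = 0.208), and its second probe was at 0.23 ± 0.48.

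The other followed genes overlapped between the arms in T10R42. Mcm2 was at -2.08, -1.55, -1.46 and -1.36 in controls and -1.0, -1.46, -1.27 and -1.21 in stressed hearts (0.38), where control replicate 1 was the lowest. Mcm5 was at -1.32, -1.36, -1.14 and -1.28 against -0.75, -1.24, -1.26 and -1.59 (0.07), and Rrm2 at -0.52, -0.85, -0.92 and -0.92 against -0.67, -0.66, -0.56 and -0.61 (0.18). E2f1 was at -1.87, -2.09, -2.14 and -2.14 against -2.07, -2.16, -2.06 and -1.99 (-0.01), with no separation. Dnmt1 was at -1.11, -1.12, -1.25 and -1.19 against -1.03, -1.16, -1.15 and -1.05 (0.07), and Chek1 at -1.94, -1.98, -1.99 and -1.86 against -2.64, -1.59, -2.18 and -2.42 (-0.27). None was called.

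Between T10R42 and T10R1 the effect differed for 2 members, Dut (0.89 ± 0.23, adjusted p = 0.0335) and Tyms (-0.43 ± 0.12, adjusted p = 0.0462), where 1.89% and 2.24% of all tested genes were called higher and lower. With 1 of 46 members called in each direction, the members were close to those shares. Dut was measured at -0.51 in T10R1, with levels of 1.60, 1.71, 1.47 and 1.60 in controls and 0.94, 1.21, 1.12 and 1.09 in stressed hearts, and at 0.38 in T10R42. All T10R1 stressed hearts lay below the controls for Dut. Both differences sat close to the threshold. The T10R42 and T10R1 slides were also scanned on different days. The Dut call was lost without 8 of the single hearts left out (adjusted p 0.0551 to 0.0712), and the Tyms call without 14 (adjusted p 0.0504 to 0.104).

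Across the conditions Ogg1 was measured higher in stressed hearts in all 4 (0.26, 0.42, 0.07 and 0.27 in T5R1, T5R10, T10R1 and T10R42) and was called in T5R1 and T5R10, and the test of a difference between T5R10 and T5R1 was not called (0.16 ± 0.11). The same sign in all 4 is not particular to Ogg1. In the same order Rrm2 was at 1.28, 0.27, 0.37 and 0.18 and Rad51ap1 at 1.73, 0.23, 0.64 and 0.15. Among others, Mcm3, Mcm4, Rfc3, Rfc5, Orc6 and Pole were also measured higher throughout. Of these other members, Orc6 and Pole were called in no condition and the rest of those named in T5R1 alone. The share of all tested genes with the same sign in all 4 conditions was not counted. Rdm1 was measured lower in all 4 (-0.70, -0.07, -0.18 and -0.09) and was called in T5R1. Brca1 was below background on all 32 arrays in all conditions. The fit pools the spread, so a gene has the same standard error in every condition, from 0.06 (Rdm1) to 0.48 (Dtl).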

How the data were processed

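RNA from 32 mouse hearts was read on 1-colour (Cy3) arrays, 1 per heart. Per the file headers, intensities were extracted with Agilent Feature Extraction 10.7.3.1 (protocol GE1_107_Sep09, probe coordinates of mm9), so the deposited processed signal is a background-subtracted intensity of each spot. The authors also deposited a table of log2 values, whose columns share 1 distribution within a slide. Its scale was read from the values, it was used only as an alternative, and how it was made is not given in the sources used here. It follows the log2 mean signal at a correlation of at least 0.99951, has column medians of 6.003 to 6.388, and is neither a ratio nor centred.

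Here log2 of the processed signal was taken minus the 75th percentile that each file header gives. 5470 outlier spot values and 3671 control spots were left out, and none of the rest was saturated. A probe was kept when well above background on at least 3 of 4 arrays of a group and missing on at most 4 arrays, which left 38824 of 55681 probes. The brightest probe stood for each of 27532 genes. 26413 probes were named by RefSeq accession, 574 through another probe, and 28694 kept the array's name. limma 3.58.1 (R 4.3.3) took all 32 arrays in 1 model of 8 group means, which left 24 residual degrees of freedom. Tests were two-sided with Benjamini-Hochberg adjustment over all tested genes. The steps were tested on simulated data.

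The members and lists were chosen with earlier results of these data known. Values per heart are given for the 8 called members with the smallest p in a condition, for members detected in 1 arm only, and for Pcna, Mcm2, Mcm5, Rrm2, Tyms, Brca1, Chek1, E2f1, Ogg1 and Dnmt1. Of other lists, up to 4 called genes with the smallest p are named. The number of arrays, 4 per arm, limits the precision. Alternatives were quantile normalization, normexp, the authors' table, no filter, all-array genes, the mean of probes, fits on each comparison's own arrays, blocks for replicate number and slide row, leaving out marked arrays or each heart, and, chosen after seeing the data, the 75th percentile over all probes. Some genes of the pathway lists are not reported here by name.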

Additional observations from a re-analysis of the deposited data

Results flagged for a closer look

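In 18 of 368 groups of 4 hearts 1 member's highest or lowest heart lay apart from the others by Dixon's criterion, where chance gives about 1 in 20 groups. 5 of the 18 were T10R1 stressed replicate 1, always on the high side: Mcm3 at 1.37, Mcm10 at -1.31, Prim1 at 0.15, Tk1 at 0.10 and E2f1 at -1.08. In T5R1 the stressed replicate 3 was high for Pola1 (0.00) and Lig1 (2.32), control replicate 3 was high for Asf1b (-0.90) and control replicate 1 for Ccne1 (-0.60). In T5R10 control hearts stood apart for Rfc3 (-3.53), Chaf1b (0.38), Asf1b (-0.83) and Chek1 (-2.50), and stressed hearts for Blm (0.05) and E2f1 (-1.82). The remaining ones were Cdc6 in T10R1 control replicate 3 (-3.65), Rfc4 in T10R42 stressed replicate 1 (1.31) and Pola1 in T10R42 control replicate 1 (-1.24). These are log2 levels relative to the array's 75th percentile.

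The stress effect differed between conditions, by the limma test of the difference itself, in 29 cases. For T5R10 minus T5R1 the helicase genes differed by -1.0 (Mcm2), -1.16 (Mcm3), -0.51 (Mcm4), -1.58 (Mcm5), -0.87 (Mcm6) and -0.58 (Mcm7). Cdt1 differed by -1.13, Prim1 by -0.71, Rrm2 by -1.01 and Tk1 by -1.47. The repair genes Rad51ap1, Fanci, Exo1 and Neil3 differed by -1.50, -3.08, -1.89 and -3.31, and Rdm1 by 0.64. Uhrf1 differed by -1.84, Asf1b by -0.85, Dtl by -3.05, E2f1 by -1.50 and E2f8 by -1.11. The values of Fanci, Exo1, Neil3 and Dtl rest on arms without detection and are not measured folds, and Fanci and Neil3 were tested only through the T5R1 stressed arrays, in which they are high. Dtl was tested only through the stressed arrays of T5R1 and T10R1.

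For T10R1 minus T5R1, which shares the T5R1 hearts, Mcm3 differed by -1.16, Mcm5 by -1.17, Tk1 by -1.0, Rad51ap1 by -1.09, Fanci by -2.60, Uhrf1 by -1.38 and Rdm1 by 0.52. For T10R42 minus T10R1, Tyms differed by -0.43 and Dut by 0.89.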

How the results depend on the processing

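No called member changed direction under any alternative run. Of the 31 members called in T5R1, 20 kept the call in every alternative, and the count of 30 higher ran from 25 to 31 with single hearts left out (1 to 2 lower). Beside the hearts named in the report, T5R1 calls were lost with normexp by Cdc6 (0.25), Rfc3 (0.23) and Exo1 (0.37), with no filter on background by Chaf1b (adjusted p = 0.0581), and on the condition's own arrays by Pcna, Pola1, Prim1, Lig1, Ogg1 and Tipin (adjusted p 0.0505 for Prim1 to 0.0991 for Ogg1). Pcna and Pola1 also lost it with the replicate block (0.052 and 0.0529). Calls elsewhere were few and moved easily. With single hearts left out, members called higher numbered 0 to 1 in T5R10, 0 to 1 in T10R1 and 0 in T10R42, and those called lower 0, 0 and 0 to 2. The differences ran from 14 to 21 (T5R10 minus T5R1), 0 to 4 (T10R42 minus T10R1) and 2 to 16 (T10R1 minus T5R1). In T10R42, 1 member was called higher with quantile normalization, and 0 lower with normexp, the authors' table or the condition's own arrays. In T10R1, 1 was called higher among genes above background on all 32 arrays. In T5R10, 0 were called higher with its own arrays or the replicate block. For T10R42 minus T10R1 the count was 0 with quantile normalization or no filter, 1 with normexp, the authors' table, own arrays, the slide row block or the 75th percentile over all probes, and 4 among genes above background on all arrays. For T10R1 minus T5R1 it was 2 with no filter and 1 with the replicate block. The causes were not tested.

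Replicate numbers do not pair the hearts: 5 of 16 same-numbered pairs correlated over 0.1 (range -0.27 to 0.21), and 6 of 16 controls matched their own number best. With the replicate number as a block, 28 members were called higher and 1 lower in T5R1, 0 in T5R10 and 1 lower in T10R42, and the differences gave 16 (T5R10 minus T5R1), 2 (T10R42 minus T10R1) and 1 (T10R1 minus T5R1). Lower genes made up 71.4% of all calls in T5R10, against 43% with quantile normalization and 84% with normexp. They made up 31.7% in T10R1, against 21.6% with quantile normalization, and 68% in T10R42, against 48% and 52.8%. In T5R1 the 75th percentile over all probes gave 51.5%. Signal over background limits Fanci, Neil3, Exo1, Dtl and Cdc6 and the 5 members not tested.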
